A study of Mus musculus with 18 samples.

Results

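Neutrophils sorted from the lung of C57BL/6 mice were compared with neutrophils sorted from blood, in 6 of the 18 libraries of a series on neutrophils of 6 tissues. The members were taken by their labels: 3 libraries from Lung and 3 from Blood, with the 12 libraries of bone marrow, Spleen, Intestine and Skin kept out of the test and used only to describe levels. All mice were adults of 8 to 12 weeks, no treatment or transgene is given for any group, and both groups were sorted by flow cytometry on CD45, CD11b and Ly6G with DAPI. The RNA of the sorted cells was amplified and read as a library per sample. The labels do not say whether the 3 replicates of a tissue were separate animals, so the p-values speak only of the spread among the libraries, which may be technical.

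Neutrophils are short-lived phagocytes that leave the bone marrow with preformed granules, and the narrow capillaries of the lung hold back a large pool of them beside the circulating one. Cells that meet a stimulus degrade the inhibitor of NF-kappaB, a transcription factor that then turns on cytokine genes together with genes of its own inhibitors, and they induce immediate early genes within minutes, before new protein is made. Granule proteins are made mainly in the marrow, where their transcripts peak before the cells are released, and interferons induce a set of antiviral genes of their own.

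Values are scaled counts: estimated reads per gene divided by an effective library size, with no division by gene length, so levels are compared between libraries and not between genes. Estimated counts totalled 2935582, 10822191 and 9376221 in Lung and 8191614, 9071304 and 9379928 in Blood. The Lung libraries were less alike than the Blood libraries: Pearson correlations across genes, which are not independent replicates, were 0.754 to 0.841 within Lung and 0.907 to 0.916 within Blood. Mitochondrially encoded genes took 2.45, 2.87 and 1.93% of the estimated counts in Lung and 0.218, 0.228 and 0.209% in Blood. Lung replicate 1 was the shallowest library and lay farthest from Blood on the first principal component, which held 60.6% of the variance.

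The label of the cells was checked against marker genes. Cxcr2, the receptor for neutrophil-attracting chemokines, was read at 356, 899.9 and 1699 in the Lung libraries (replicates 1, 2 and 3, the order used throughout) and 3839, 3525 and 3492 in Blood. Csf3r, the receptor for granulocyte colony-stimulating factor, was at 971, 1888 and 3229.8 in Lung and 3947, 3592 and 4014 in Blood. Neutrophil transcripts were thus present in every library, and both genes were lowest in Lung replicate 1. Markers of other cells were also present in Lung. The summed level of 34 endothelial markers was 10463, 7015 and 2989.9 in Lung against 193, 158 and 232 in Blood, and 5 of them (Clec14a, Car4, Sox17, Sox18 and Nos3) had no counts in any Blood library. Epithelial markers summed to 4909, 3497 and 1346 in Lung against 235, 156 and 259.6 in Blood, and fibroblast and mural cell markers to 3318, 2247 and 653 against 119.8, 128 and 225. Macrophage and dendritic cell markers differed less, at 2385, 1517 and 1049 against 675, 1167 and 1017. Monocyte markers summed to 2239, 2589 and 2413 in Lung against 766, 1149 and 1102 in Blood, without a fall from Lung replicate 1 to 3. Nr4a1, an immediate early gene described below, is on the monocyte list and holds much of its Lung sum. Red cell markers went the other way, at 653, 182 and 238 in Lung and 2940.5, 8930.5 and 4784 in Blood. The endothelial, epithelial and fibroblast sums were all highest in Lung replicate 1 and lowest in Lung replicate 3, the reverse of Cxcr2 and Csf3r. What part other cells have in the differences below was not tested. In bulk RNA a lower neutrophil transcript can come from fewer neutrophils or from less of that RNA per cell, and these cannot be told apart.

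**Figure D1:**
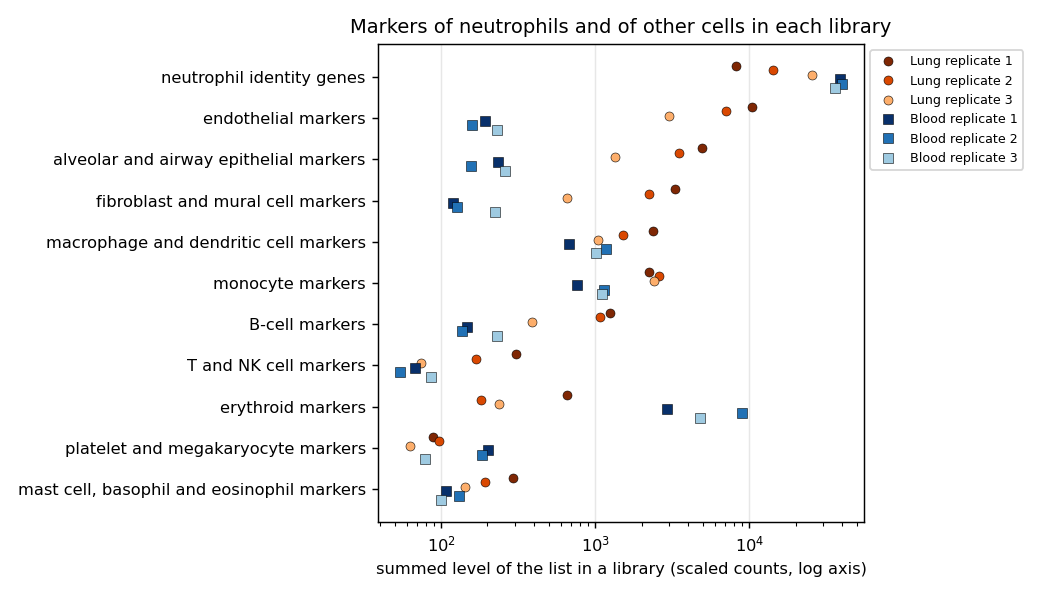
Summed level of the neutrophil identity genes and of each list of markers of other cells, in scaled counts on a log axis, with circles for the 3 Lung libraries and squares for the 3 Blood libraries. Endothelial markers sum to 2989.9 or more in Lung and 232 or less in Blood, and the Lung libraries lie in the opposite order for the neutrophil identity genes.

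Lung and Blood neutrophil samples differed in 2377 of 12755 tested genes (18.6%) by limma at a Benjamini-Hochberg adjusted p under 0.05. Of these 1557 were higher in Lung (12.2% of tested genes) and 820 were lower (6.43%). The counts of each list below are to be read beside these shares. All 3 Lung libraries lay above all 3 Blood libraries in 19.8% of tested genes and below them in 17.1%. The higher genes had a median log2 difference of 3.08 and the lower ones of -1.80, beside a median of -0.04 over all tested genes. Among the higher genes 184 had no counts in any Blood library, and among the lower genes 47 had none in any Lung library. A gene could pass the filter on low values through 1 tissue alone, so counts over tested genes, those of the lists below included, only describe. Of 3107 genes with a Blood mean of at least 50 scaled counts, a floor that by construction favours genes lower in Lung, 97 were higher and 559 lower. The share of calls that were higher was 65.5%, but 45.6% when each library was centred on its median and 96.1% when it was centred on the neutrophil identity genes, a scaling chosen after the data were seen. These scalings moved the median of all genes to -0.41 and 0.87, and quantile normalization moved it to -0.22. Without Lung replicate 2 the calls fell to 829, and without Lung replicate 1 to 1361. Without Blood replicate 1 they numbered 1241, without Blood replicate 2 they numbered 1201, and without Blood replicate 3 the lower genes numbered 440. Without Lung replicate 3 there were 3244 calls, of which 48.8% were higher and 1662 genes lower.

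**Figure D2:**
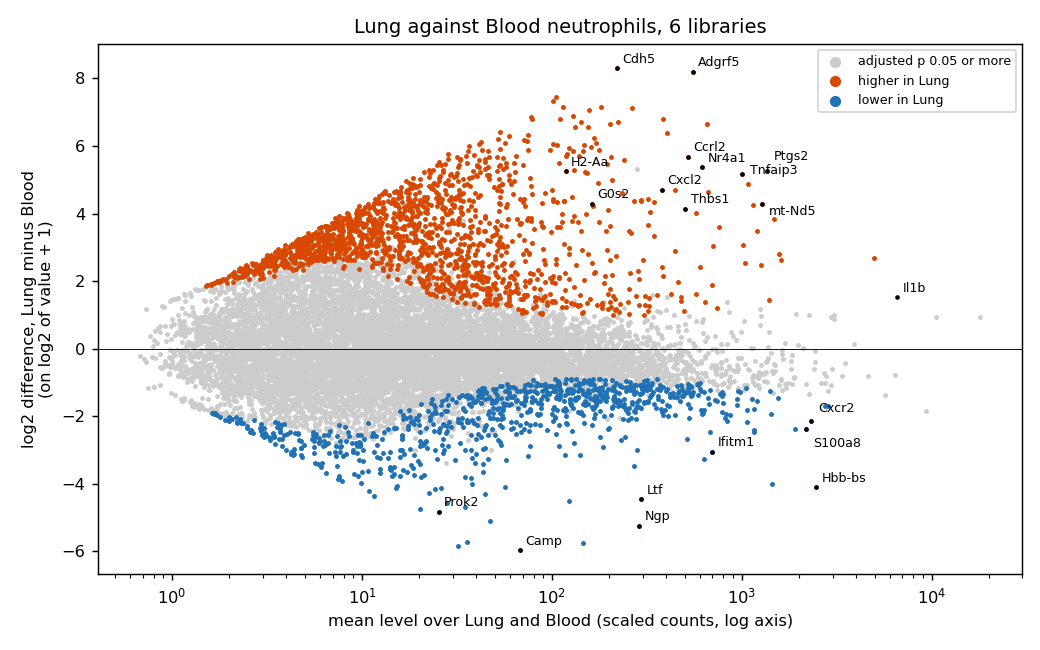
Log2 difference of Lung minus Blood on log2(value + 1) against the mean level of both tissues in scaled counts (log axis), 1 point per tested gene. Orange and blue points are the 1557 higher and 820 lower genes, and black points are labelled genes, of which Il1b did not pass.

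Genes of the NF-kappaB response were higher in Lung in part, among them the pathway's own inhibitors. All 34 listed members were tested, of which 12 were higher (12.2% of all tested genes were), 1 was lower (6.43% of all) and 21 did not pass, and the median log2 difference was 0.87 (0.50 without Lung replicate 2). Tnfaip3, which encodes the ubiquitin-editing inhibitor A20, was at 1329, 2515 and 2035 in Lung and 58.1, 44.5 and 53.1 in Blood. The groups did not overlap, and the log2 difference was 5.17 ± 0.32 (SE, as for all differences; adjusted p = 1.06e-05). Nfkbia, the inhibitor that holds NF-kappaB in the cytoplasm, was at 824, 1553 and 1406 in Lung and 159.8, 159.5 and 123 in Blood (3.05 ± 0.33, adjusted p = 0.000135). Nfkbiz, a nuclear cofactor, was at 1413, 2776 and 2232 in Lung and 310.0, 354 and 449 in Blood (2.49 ± 0.37), and the related Nfkbid was at 130.02, 171 and 186 in Lung and 7.95, 8.55 and 19.8 in Blood (3.74 ± 0.41). Each of these 4 genes was highest in Lung replicate 2 or 3 and lowest in Lung replicate 1. Of all 12 higher members 2 were highest in Lung replicate 1, 6 in replicate 2 and 4 in replicate 3. What part other cells have in these values was not tested. Bcl2a1d, Bcl2a1b and Bcl2a1a, near-identical copies of a survival gene whose reads can be shared, were higher too, Bcl2a1b at 105, 237 and 294 in Lung against 4.84, 8.48 and 31.9 in Blood. Bcl2a1d had no counts in Blood and was at least 146-fold higher in Lung, counting 3 reads per library as the floor. The NF-kappaB subunits themselves did not pass: Nfkb1 differed by -0.54, Rela by -0.58, Relb by -0.12 and Rel by 0.85 (adjusted p = 0.0530). Irf1, an interferon-induced factor, was the member that was lower, at 226, 279 and 243 in Lung against 458, 495 and 446 in Blood (-0.91 ± 0.28, adjusted p = 0.0421), and its call was lost when any 1 library other than Lung replicate 3 was left out (adjusted p up to 0.148). The count of higher members stayed within 8 to 18 over the alternatives run.

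Secreted cytokines and chemokines were higher in part. Of 39 listed members 28 were tested, and 9 of these were higher and 2 lower. The other 17 did not pass, and the list had a median log2 difference of 0.36 (-0.00 with libraries centred on their medians and -0.01 without Lung replicate 3). Cxcl2, a chemokine that attracts neutrophils through Cxcr2, was at 435, 551 and 1203 in Lung and 28.4, 12.9 and 38.4 in Blood (4.71 ± 0.45, adjusted p = 5.44e-05). Its relative Cxcl1 was at 22.3, 35.4 and 21.3 in Lung, had no counts in Blood and was at least 67.9-fold higher. Il1a, which encodes interleukin-1 alpha, was at 72.5, 89.8 and 34.0 against at most 0.816 in Blood (5.60 ± 0.72). Tnf, tumour necrosis factor, was at 33.3, 53.0 and 20.0 in Lung and 1.14, 1.91 and 0.885 in Blood (3.90 ± 0.70, adjusted p = 0.00308). The groups did not overlap for any of these 4 genes, with Lung above Blood as in 19.8% of all tested genes. Il1b, whose product is the secreted cytokine interleukin-1 beta, was at 5329, 9252 and 15314 in Lung and 2640.3, 3745 and 3195 in Blood. Its groups did not overlap either, but the difference of 1.53 ± 0.60 did not pass (adjusted p = 0.0923). Tnfsf14, a tumour necrosis factor relative, was lower at 32.0, 50.6 and 94.1 in Lung against 257, 310.3 and 225 in Blood (-2.27 ± 0.38, adjusted p = 0.00206), and so was Il16 (-1.65 ± 0.32). Without Lung replicate 2, 5 members were higher.

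Immediate early genes were higher in Lung in 19 of 36 tested members (38 listed) and lower in 0, with a median log2 difference of 1.83 (1.17 without Lung replicate 3). By limma without adjustment 2 members, Klf2 and Dusp6, were lower at p under 0.05. Nr4a1, an orphan nuclear receptor induced by many stimuli and also on the monocyte list, was at 615, 1363 and 1642 in Lung and 23.5, 15.1 and 47.7 in Blood (5.38 ± 0.45, adjusted p = 2.87e-05). Its relative Nr4a3 was at 149, 226 and 351 in Lung and 6.20, 2.12 and 1.302 in Blood (5.94 ± 0.52, adjusted p = 3.17e-05). Fosb, which joins Jun proteins in the dimer AP-1, was at 704, 959 and 1559 in Lung against 45.8, 31.7 and 159.8 in Blood (4.02 ± 0.51). All 3 were lowest in Lung replicate 1 and highest in Lung replicate 3, and none overlapped with Blood. Ppp1r15a, which ends the stress-induced block of translation, was at 345, 601 and 944 in Lung and 67.5, 37.3 and 69.8 in Blood (3.35 ± 0.39), and the stress factor Atf3 at 157, 202 and 409 in Lung and 8.79, 19.9 and 25.3 in Blood (3.75 ± 0.45). Jun itself was also higher, at 305, 200.3 and 110.3 in Lung against 74.3, 36.8 and 53.6 in Blood (1.82 ± 0.40, adjusted p = 0.00901), but was highest in Lung replicate 1. Fos, at 711, 1122 and 2129 in Lung and 600.2, 438 and 1169.9 in Blood, did not pass (0.82 ± 0.47, adjusted p = 0.251), nor did Junb (0.88), Dusp1 (0.16) or Zfp36 (0.49). Between 13 and 28 members were higher over the alternatives.

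The promoters of some of these genes were searched for the motifs of the factors named above, in the 250 bases before the start site that RefSeq gives, on both strands. The kappaB motif, searched in the form that the capitals below show with 1 base free, was in 0.414% of 27025 promoters and 0.454% of those of tested genes, among them 1 of 11 matched NF-kappaB response genes that were higher and 2 of 6 matched cytokine genes that were higher. The cAMP response element TGACGTCA, bound by factors that act on immediate early genes, was in 1.77% of all promoters, in 2.92% of those of 9476 tested genes and in 4 of 15 matched immediate early genes that were higher: Btg2, Maff, Ppp1r15a and Plk2. The AP-1 motif TGANTCA was in 7.82% of all promoters, in 5.78% of those of tested genes and in 5 of those 11 NF-kappaB response genes, of which 3 are the near-identical Bcl2a1 copies. In the 15 matched immediate early genes that were higher, the AP-1 motif was in 1 and the kappaB motif in 0. The CArG box (CC, 6 A or T, GG) was in 1.62% of all promoters, in 1.41% of those of tested genes and in 1 of these 15. No kappaB or cAMP response element match overlaps a match of another of these motifs in the sequences below. The 3 promoters with a kappaB match and 2 of the 4 with a cAMP response element are shown because their genes were among those higher in Lung, and they were picked after the matches were seen. A match is a run of letters and not a measured binding site. Sequences are from RefSeq on GRCm38.p6, 5′ to 3′ in the direction of the gene, and capitals mark the motif on either strand. Nfkbia lies at chr12:55492648-55492897 (minus strand), Cxcl1 at chr5:90890995-90891244 and Cxcl2 at chr5:90903649-90903898 (both plus), Btg2 at chr1:134079156-134079405 (minus) and Maff at chr15:79347270-79347519 (plus).
Nfkbia: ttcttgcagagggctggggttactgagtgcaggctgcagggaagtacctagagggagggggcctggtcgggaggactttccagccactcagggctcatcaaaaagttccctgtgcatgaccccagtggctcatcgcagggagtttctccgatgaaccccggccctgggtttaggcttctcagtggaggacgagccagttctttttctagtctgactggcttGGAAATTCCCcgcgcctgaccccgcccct
Cxcl1: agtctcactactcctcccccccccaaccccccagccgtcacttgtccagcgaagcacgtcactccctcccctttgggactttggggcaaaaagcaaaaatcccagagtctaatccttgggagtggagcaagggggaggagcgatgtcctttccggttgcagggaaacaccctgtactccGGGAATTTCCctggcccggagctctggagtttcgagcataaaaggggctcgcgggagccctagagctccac
Cxcl2: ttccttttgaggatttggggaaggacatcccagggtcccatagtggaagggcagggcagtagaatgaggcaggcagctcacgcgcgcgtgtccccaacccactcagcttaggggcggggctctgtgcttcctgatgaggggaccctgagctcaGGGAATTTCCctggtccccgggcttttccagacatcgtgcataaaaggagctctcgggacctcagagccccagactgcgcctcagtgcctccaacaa
Btg2: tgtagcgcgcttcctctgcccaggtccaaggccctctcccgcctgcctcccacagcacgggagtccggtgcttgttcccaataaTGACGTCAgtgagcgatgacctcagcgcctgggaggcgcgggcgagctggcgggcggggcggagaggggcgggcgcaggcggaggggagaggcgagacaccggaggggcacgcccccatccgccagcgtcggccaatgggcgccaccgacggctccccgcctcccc
Maff: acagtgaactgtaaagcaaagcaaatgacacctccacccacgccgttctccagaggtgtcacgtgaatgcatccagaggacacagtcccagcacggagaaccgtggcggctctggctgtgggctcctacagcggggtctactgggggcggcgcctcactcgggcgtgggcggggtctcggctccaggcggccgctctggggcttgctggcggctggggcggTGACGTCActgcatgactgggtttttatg
The kappaB match began 29 bases before the start site of Nfkbia, 71 before that of Cxcl1 and 97 before that of Cxcl2. The cAMP response element began 166 bases before the start of Btg2 and 29 before that of Maff. Btg2, an antiproliferative factor, was at 1733, 3013 and 3504 in Lung and 410.3, 266 and 709 in Blood (2.63 ± 0.44, adjusted p = 0.00203). Maff, a small transcription factor without an activation domain, was at 80.9, 88.4 and 119 in Lung and 11.1, 7.57 and 10.3 in Blood (3.18 ± 0.40, adjusted p = 0.000346).

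**Figure D3:**
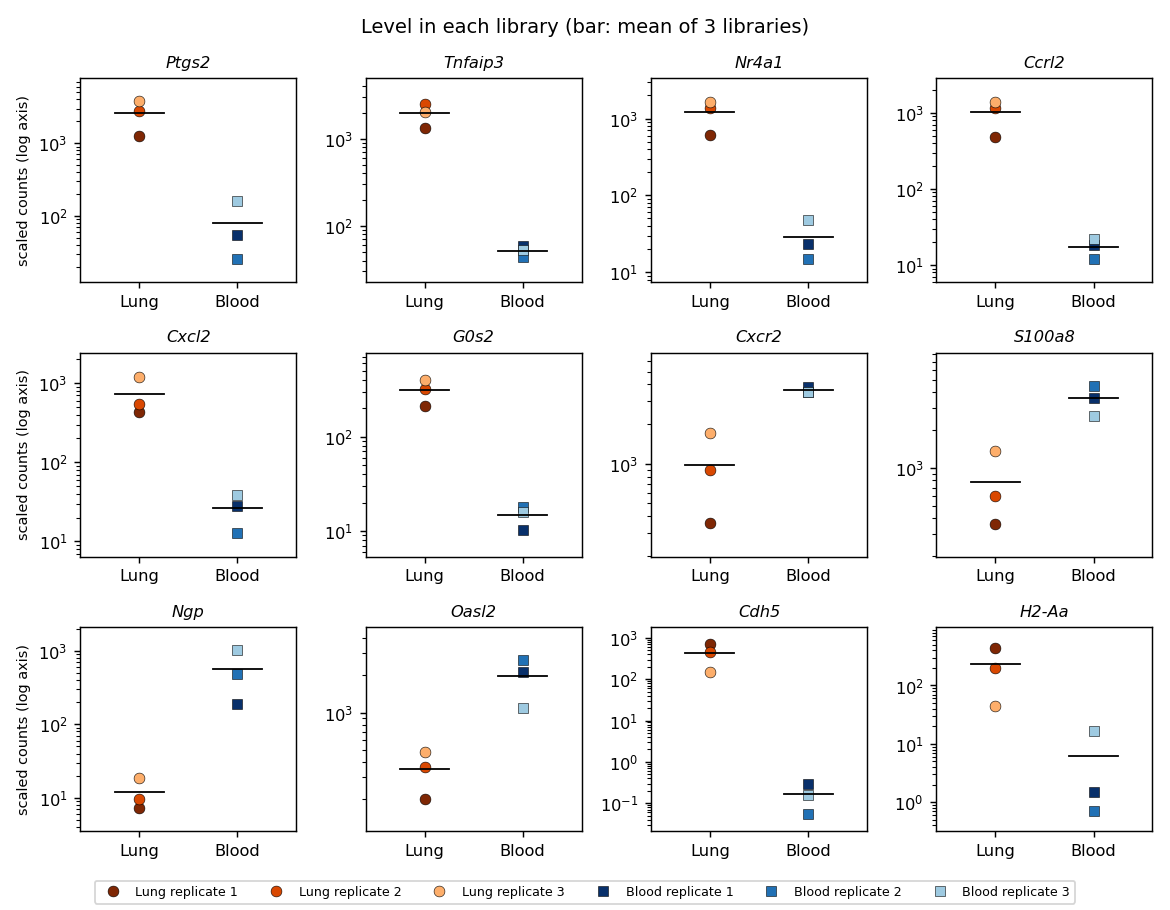
Level of 12 genes in each library, in scaled counts on log axes that differ between panels, with a bar at the mean of the 3 libraries of a tissue. Ptgs2, Tnfaip3, Nr4a1, Ccrl2, Cxcl2 and G0s2 are lowest in Lung replicate 1 and still above every Blood library, while Cdh5 and H2-Aa are highest there.

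Genes of angiogenic and matrix-remodelling factors were higher in part. Of 34 listed members 26 were tested, and 11 of these were higher and 3 lower. The other 12 did not pass, and the list had a median log2 difference of 1.92. That median was 0.998 without Lung replicate 1, 0.33 without Lung replicate 2, 1.25 without Lung replicate 3 and 1.06 with a filter at 5. Ptgs2, the inducible cyclooxygenase that makes prostaglandins, was at 1248, 2811 and 3789.9 in Lung and 55.4, 25.3 and 159 in Blood (5.26 ± 0.58, adjusted p = 0.000140). Thbs1, the matrix glycoprotein thrombospondin 1, was at 574, 786 and 1512 in Lung and 38.9, 59.0 and 51.2 in Blood (4.14 ± 0.37, adjusted p = 3.47e-05). Both were lowest in Lung replicate 1 and did not overlap with Blood. Vegfa, the vascular endothelial growth factor, was at 187, 167 and 147 in Lung and 55.0, 71.5 and 48.8 in Blood and passed in these 6 libraries (1.51 ± 0.30, adjusted p = 0.00554). Its test in a fit of all 18 libraries, which share a spread, gave an adjusted p of 0.146. Prok2, a chemokine-like angiogenic factor of neutrophils, went the other way, at 0.131, 0.0397 and 1.74 in Lung against 51.0, 82.7 and 16.1 in Blood (-4.83 ± 0.82, adjusted p = 0.00223). The values of 0.131 in Lung replicate 1 and 0.0397 in Lung replicate 2 are those of a gene without counts there. The same holds for 0.131 in Lung replicate 1 where it is given for other genes below. The growth factors Angpt1, Pdgfb, Pdgfa and Apln were also among the 11 higher members. Like Vegfa, none of them was highest in Lung replicate 3, and what part other cells have in these values was not tested. The higher count was 7 without Lung replicate 1, 4 without Lung replicate 2, 6 without Blood replicate 1 and 7 without Blood replicate 3, and the lower count was 1 without Lung replicate 2.

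Among 25 tested receptors for chemokines and other attractants (27 listed), 5 were higher, 3 lower and 17 did not pass (median log2 difference -0.14, -0.71 without Lung replicate 2 or 3, and 0.76 centred on the neutrophil identity genes). Ccrl2, an atypical receptor that binds chemerin without signalling, was at 476, 1178 and 1401 in Lung and 18.4, 12.1 and 22.0 in Blood (5.68 ± 0.41, adjusted p = 1.68e-05). The lowest Lung library was far above the highest Blood library. Cxcr2 was lower by the values given above (-2.14 ± 0.53, adjusted p = 0.0147), and so were Cxcr1 (-3.42 ± 0.86) and the formyl peptide receptor Fpr2 (-1.77 ± 0.47, adjusted p = 0.0217). Without Lung replicate 2 these 3 did not pass (adjusted p = 0.0798, 0.0588 and 0.0795), nor did Cxcr2 without Blood replicate 1 (0.0540). Hcar2, a receptor for niacin and ketone bodies, was at 185, 339 and 426 in Lung against 80.9, 113 and 112 in Blood (1.56 ± 0.35). Cxcr4, the receptor that returns aged neutrophils to the marrow, was at 258, 535 and 879.7 in Lung and 301, 264 and 512 in Blood, and the groups overlapped (0.52 ± 0.44, adjusted p = 0.431). The higher count was 2 without Lung replicate 1, 1 without Lung replicate 2 and 2 without Lung replicate 3. The lower count was 0 without Lung replicate 2, 7 without Lung replicate 3 and 1 without either Blood replicate 1 or Blood replicate 2. Ccr7, a homing receptor that dendritic cells and lymphocytes also express, was at 37.0, 43.7 and 6.12 in Lung with no counts in Blood, at least 74.5-fold higher.

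Of 24 tested Toll-like receptors and adaptors (27 listed) 3 were higher, or 12.5% against 12.2% of all tested genes. Another 6 were lower, or 25% against 6.43%, and 15 did not pass (median log2 difference -0.71, and -0.39 without Lung replicate 1). Cd14, the coreceptor that hands lipopolysaccharide to Tlr4, was at 253, 344 and 539.9 in Lung and 65.9, 35.8 and 61.6 in Blood (2.76 ± 0.36, adjusted p = 0.000426). Tlr2, a receptor for bacterial lipopeptides, was at 223, 303 and 466 in Lung and 127, 122 and 130.2 in Blood (1.32 ± 0.32), and the inflammasome sensor Nlrp3 at 404, 716 and 986 in Lung and 289, 173 and 302 in Blood (1.41 ± 0.38). These 3 genes were lowest in Lung replicate 1 and highest in Lung replicate 3. Tlr2 and Nlrp3 were lost without Lung replicate 2 (adjusted p = 0.0573 and 0.0918) and without Blood replicate 1 or 2. Tlr4 itself was lower, at 74.1, 96.1 and 203 in Lung against 274, 338 and 288 in Blood (-1.39 ± 0.37, adjusted p = 0.0207), as were Tlr13 (-1.65 ± 0.37), which senses bacterial ribosomal RNA, the shared adaptor Myd88 (-1.52 ± 0.37), Tirap (-2.05 ± 0.42), the kinase Irak4 (-1.34 ± 0.31) and Tlr1 (-2.27 ± 0.68). Tlr4 did not pass without Lung replicate 2 (adjusted p = 0.0914), Blood replicate 1 or Blood replicate 2. The higher count was 1 without these libraries, and the lower count was 3 without Lung replicate 2 or Blood replicate 1. Centred on the neutrophil identity genes the median was 0.19 and no member was lower. Trem1, a receptor that amplifies inflammatory signals, was counted with the neutrophil identity genes and was higher, at 529, 1018 and 1801 in Lung against 260.1, 248 and 305 in Blood (1.87 ± 0.41, adjusted p = 0.00858).

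Heat shock proteins were higher in 15 of 23 tested members (24 listed), with a median log2 difference of 1.79. By limma none was lower, also at an unadjusted p under 0.05 (0 members). Hspa1a and Hspa1b, near-identical inducible chaperones whose reads can be shared, were at 102, 72.9 and 39.4 and 53.3, 82.4 and 59.0 in Lung, with at most 4.37 and 9.31 in Blood (5.06 ± 0.75 and 4.61 ± 0.81). Hsp90ab1, a constitutive chaperone, was at 819, 601 and 461 in Lung and 101, 139 and 186 in Blood (2.14 ± 0.34, adjusted p = 0.00134). Hsp90b1, its counterpart in the endoplasmic reticulum, was at 615, 484 and 198 in Lung and 65.5, 80.2 and 101 in Blood (2.25 ± 0.40). Of these 15 genes 9 (60.0%) were highest in Lung replicate 1, near the 63.9% among all genes higher in Lung. Hspa8, the abundant constitutive chaperone, was at 1026, 948 and 1111 in Lung against 449, 425 and 468 in Blood (1.20 ± 0.31, adjusted p = 0.0180), highest in Lung replicate 3, and was lost when any 1 library other than Lung replicate 1 or 3 was left out (adjusted p up to 0.0949). Dnajb1 (0.19) and the regulator Hsf1 (-0.05) did not pass. Without Lung replicate 2, 9 members were higher. The heat shock element was in 0.514% of all promoters and in 2 of 11 matched members that were higher, Hspd1 and Hspe1, which lie head to head in the genome.

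Genes of specific and gelatinase granules were lower in Lung. Of 28 tested members (30 listed) 15 were lower and 13 did not pass, and the median log2 difference was -1.57. By limma none was higher, and 1, Chil3, was at an unadjusted p under 0.05. Ngp, a marker of the marrow stages that fill specific granules, was at 7.19, 9.64 and 18.8 in Lung and 188, 479 and 1019 in Blood (-5.24 ± 0.54, adjusted p = 8.67e-05). Camp, the cathelicidin precursor, was at 0.131, 2.34 and 0.505 in Lung against 56.5, 93.6 and 252 in Blood (-5.96 ± 0.71, adjusted p = 0.000242). Ltf, lactoferrin, was at 45.1, 14.96 and 8.03 in Lung and 142, 448 and 1111 in Blood (-4.47 ± 0.68, adjusted p = 0.00111). All 3 genes were lowest in Blood replicate 1, which still lay above every Lung library. Lcn2, the siderophore-binding lipocalin, was at 243, 304 and 603 in Lung and 1395, 2590.2 and 1828 in Blood (-2.40 ± 0.41, adjusted p = 0.00230), and Mmp8, neutrophil collagenase, at 234, 193 and 602 in Lung and 948, 1464 and 1423 in Blood (-2.06 ± 0.43, adjusted p = 0.00654, and 0.0588 without Lung replicate 2). Cd177, a surface glycoprotein stored in these granules, was at 72.0, 39.7 and 86.8 in Lung against 228, 425 and 345 in Blood (-2.34 ± 0.36). Mmp9, gelatinase B, was at 675, 1311 and 1412 in Lung and 1569, 1523 and 2104 in Blood, short of the threshold (-0.67 ± 0.41, adjusted p = 0.279). Centred on the neutrophil identity genes 8 members were lower, among them Camp (-5.05), Ngp (-4.33), Ltf (-3.56) and Lcn2 (-1.49), and Cd177 did not pass (-1.43, adjusted p = 0.0536). Cd177 is itself among the genes used for that centring. Of 12 tested azurophil granule genes (18 listed) 1 was lower and 11 did not pass (median -0.03, from -0.12 without Blood replicate 1 to 0.18 without Blood replicate 3, 0.11 under quantile normalization and 0.88 centred on the neutrophil identity genes). The lower member of the list, Igsf6 (-1.13 ± 0.36, adjusted p = 0.0462), encodes a membrane protein of the immunoglobulin superfamily and not a granule protein. Its call was lost when any 1 library other than Lung replicate 3 was left out (adjusted p up to 0.191). Elane, Prtn3 and Ctsg, the proteases of these granules, and Bpi had no counts in any of the 6 libraries.

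Genes that identify neutrophils were lower in 14 of 31 tested members (34 listed) and higher in 2, with 15 that did not pass and a median log2 difference of -1.39. S100a8, a subunit of the abundant calcium-binding protein calprotectin, was at 362, 601 and 1364 in Lung and 3586, 4516 and 2607 in Blood (-2.38 ± 0.50, adjusted p = 0.00665, and 0.0600 without Lung replicate 2). Its partner S100a9 was at 2388, 3424 and 7486 in Lung and 14363, 15001 and 13207 in Blood, short of the threshold (-1.85 ± 0.66, adjusted p = 0.0697). Ly6g, the gene of the sorting antigen, was at 37.2, 20.1 and 19.9 in Lung and 102, 237 and 69.3 in Blood (-2.23 ± 0.46, adjusted p = 0.00654). Slfn4, an interferon-responsive gene of myeloid cells, was at 44.6, 30.1 and 53.5 in Lung against 384, 391 and 215 in Blood (-2.91 ± 0.35, adjusted p = 0.000256). G0s2, which slows fat breakdown by inhibiting a lipase, was the clear exception, at 212, 321 and 399.5 in Lung and 10.3, 17.8 and 15.99 in Blood (4.30 ± 0.36, adjusted p = 2.87e-05). Of the 14 lower members 12 were highest in Lung replicate 3, as were 64.9% of all genes lower in Lung, and this was the Lung library with the lowest sums of endothelial, epithelial and fibroblast markers. The lower count was 7 without Lung replicate 2 and 24 without Lung replicate 3, and the part of those markers in the result was not tested.

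Type I interferon response genes were lower in Lung in 25 of 35 tested members (36 listed), with 10 that did not pass and a median log2 difference of -1.81. By limma none was higher, and 1, Bst2, was at an unadjusted p under 0.05. Oasl2, of the oligoadenylate synthetase family, was at 202, 367 and 483 in Lung and 2134, 2663 and 1095 in Blood (-2.48 ± 0.43, adjusted p = 0.00254). Ifitm1, a membrane protein that restricts virus entry, was at 97.2, 129 and 191 in Lung and 1689.6, 1526 and 541 in Blood (-3.05 ± 0.44, adjusted p = 0.000790), and its family shares reads in part. Both were lowest of the Blood libraries in Blood replicate 3, which still lay above every Lung library. Rsad2, the antiviral enzyme viperin, was at 126, 297 and 432 in Lung and 925, 1220.1 and 650.4 in Blood (-1.83 ± 0.44, adjusted p = 0.0130, and 0.0518 without Blood replicate 2), and Ifit3, which binds viral RNA complexes, at 49.5, 49.3 and 68.2 in Lung and 328, 252 and 128 in Blood (-1.98 ± 0.37). Isg15 (-1.23, adjusted p = 0.124) and Mx1 (-0.72) did not pass. Without Blood replicate 2, 14 members were lower. Centred on the neutrophil identity genes the median was -0.90 and 6 members were lower, among them Oasl2 (-1.57, adjusted p = 0.00575) and Ifitm1 (-2.15, adjusted p = 0.00373).

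The interferon-stimulated response element, searched on both strands, in the form that the capitals below show with 2 bases free, after the lower calls of this list were seen, was in 3.46% of all promoters and in 9 of 19 matched type I interferon response genes that were lower. These were Ifit1, Ifit3, Ifit3b, Oas1a, Oas1g, Oas3, Rsad2, Stat2 and Trim30a. The promoters of Ifit3, with 2 matches, and Rsad2, with 1, are shown from RefSeq on GRCm38.p6 as examples picked after the matches were seen. Ifit3 lies at chr19:34583279-34583528 (plus strand) and Rsad2 at chr12:26456453-26456702 (minus), and capitals mark the element, read here on the opposite strand.
Ifit3: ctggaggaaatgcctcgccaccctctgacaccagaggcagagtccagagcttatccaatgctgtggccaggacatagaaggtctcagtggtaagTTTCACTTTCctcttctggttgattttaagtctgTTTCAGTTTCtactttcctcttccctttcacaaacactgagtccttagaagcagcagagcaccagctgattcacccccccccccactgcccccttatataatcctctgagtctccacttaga
Rsad2: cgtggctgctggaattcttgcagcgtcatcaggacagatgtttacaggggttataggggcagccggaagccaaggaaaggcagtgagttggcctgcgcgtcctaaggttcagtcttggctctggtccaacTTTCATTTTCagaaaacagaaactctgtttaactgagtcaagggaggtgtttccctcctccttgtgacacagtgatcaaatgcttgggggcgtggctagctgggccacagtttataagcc
The matches began 156 and 122 bases before the start site of Ifit3 and 120 before that of Rsad2. Both promoters also hold an AP-1 motif that does not overlap the capitals.

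Interferon-gamma response genes were lower in 9 of 26 tested members (29 listed) and higher in 2 (median log2 difference -0.59, and -0.88 without Lung replicate 2). Gbp2, a guanylate-binding protein of a family with similar copies, was at 122, 114 and 127 in Lung and 1238, 1177 and 320.1 in Blood (-2.67 ± 0.45, adjusted p = 0.00219). Igtp and Irgm1, of a family of interferon-induced GTPases, were lower as well (-2.03 ± 0.42 and -1.80 ± 0.38). Iigp1, of the same family, was higher, at 47.4, 28.4 and 16.2 in Lung against at most 0.299 in Blood (4.59 ± 0.75, adjusted p = 0.00178), and was highest in Lung replicate 1. Centred on the neutrophil identity genes the median was 0.32 and 1 member was lower, Gbp2 (-1.77, adjusted p = 0.0292).

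Class II antigen presentation genes were higher in 8 of 14 tested members (15 listed), with a median log2 difference of 2.95. By limma none was lower, also at an unadjusted p under 0.05 (0 members). Cd74, the invariant chain that guides class II molecules, was at 948, 489 and 125 in Lung and 13.8, 13.3 and 30.2 in Blood (4.37 ± 0.60, adjusted p = 0.000604). H2-Aa, a class II chain, was at 447, 197 and 44.9 in Lung and 1.495, 0.708 and 16.3 in Blood (5.25 ± 0.90, adjusted p = 0.00232). Both were highest in Lung replicate 1 and lowest in Lung replicate 3, as was the sum of 15 B-cell markers at 1244, 1075 and 392 in Lung against 147, 137 and 229.6 in Blood. Of 14 tested B-cell markers 7 were higher and 7 did not pass, with Pax5, the B-cell identity factor, at 72.5, 96.6 and 44.1 in Lung and at most 2.14 in Blood. Mrc1, the mannose receptor of macrophages, was at 184, 103 and 26.9 in Lung and 1.495, 0.599 and 0.781 in Blood (5.40 ± 0.75), 1 of 8 macrophage and dendritic cell markers that were higher of 24 tested. Without Lung replicate 2, 4 class II genes, 3 B-cell markers and 2 macrophage and dendritic cell markers were higher. Without Lung replicate 1, 4 macrophage and dendritic cell markers were, as without Blood replicate 1, and 5 without Blood replicate 2. What part these cells have in the class II values was not tested.

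Adhesion molecules were higher in 11 of the 30 listed members, all tested, and lower in 3 (median log2 difference 0.07, -0.29 with libraries centred on their medians and -0.07 without Lung replicate 2). Of the 11 higher genes 9 were highest in Lung replicate 1 and none in Lung replicate 3. Pecam1, a junction protein that neutrophils share with endothelium, was at 576, 323 and 175 in Lung and 27.8, 22.6 and 33.4 in Blood (3.48 ± 0.41, adjusted p = 0.000234). Icam1, the ligand of the leukocyte integrins, was at 173, 164 and 80.02 in Lung and 5.08, 17.6 and 29.0 in Blood (3.14 ± 0.55, adjusted p = 0.00262). The 3 lower genes were Selplg, which carries the selectin ligand, at 332, 521 and 1191 in Lung against 1686, 1886 and 1629.8 in Blood (-1.55 ± 0.45), Siglece (-1.87 ± 0.42) and the integrin chain Itga4 (-1.16 ± 0.36). Selplg and Itga4 were lost when any 1 library other than Lung replicate 3 was left out (adjusted p up to 0.145 and 0.161). The neutrophil integrin chains Itgam (-0.85, adjusted p = 0.160) and Itgb2 (-0.92, adjusted p = 0.0906) did not pass. Of 32 tested endothelial markers 31 were higher, with a median log2 difference of 4.88. Cdh5, the cadherin of endothelial junctions, was at 698, 467 and 153 in Lung and at most 0.299 in Blood (8.31 ± 0.59, adjusted p = 1.68e-05). Between 21 and 32 endothelial markers were higher over the alternatives. Epithelial markers were higher in 21 of 26 (12 without Lung replicate 1 or 2, 13 without Lung replicate 3) and fibroblast and mural cell markers in 19 of 22 (11 without Lung replicate 1, Lung replicate 2 or Blood replicate 2). Of the adhesion molecules 5 were higher without Lung replicate 2. Leaving out Lung replicate 3 left 9 lower, and leaving out any other 1 library left 1.

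Of 17 tested clock genes (21 listed) 6 were higher and 11 did not pass. Their median log2 difference was 1.13, but 0.14 without Lung replicate 2, 0.16 without Lung replicate 3, 0.74 without Blood replicate 3 and 0.45 with a filter at 5. Per1, a repressor in the clock that glucocorticoids also induce, was at 108, 273 and 665 in Lung and 33.3, 52.0 and 117 in Blood, and Lung replicate 1 fell within the Blood range (2.18 ± 0.59, adjusted p = 0.0226). Per1 was lost without Lung replicate 2 (adjusted p = 0.0668), Blood replicate 1 or Blood replicate 2. Bhlhe40, another clock repressor, was at 147, 261 and 173 in Lung and 32.5, 38.4 and 47.6 in Blood (2.24 ± 0.33, adjusted p = 0.000971). The clock count was 3 without Lung replicate 1, Blood replicate 1 or Blood replicate 2 and 1 without Lung replicate 2, and Arntl, the clock activator, had no counts in any of the 6 libraries. Of 31 tested glycolysis and hypoxia genes (33 listed) 8 were lower and 1, Vegfa, higher (median -0.45, -0.77 without Lung replicate 3, and 0.45 centred on the neutrophil identity genes). Pkm, the last kinase of glycolysis, was at 677, 700.0 and 1158 in Lung against 1673, 2310.4 and 1910.3 in Blood (-1.25 ± 0.38, adjusted p = 0.0387), and was lost when any 1 library other than Lung replicate 3 was left out (adjusted p up to 0.212). The lower count ran from 1 (without Blood replicate 1 or 2), 2 (without Lung replicate 2), 3 (without Blood replicate 3) and 4 (without Lung replicate 1) to 13 (without Lung replicate 3), and it was 0 when libraries were centred on the neutrophil identity genes. Of 21 tested Bcl2 family genes (25 listed) 5 were higher and 1 lower (23.8% and 4.8%, against 12.2% and 6.43% of all tested genes). The higher members were Bcl2l2, Pmaip1 and the near-identical copies Bcl2a1a, Bcl2a1b and Bcl2a1d. Reads can be shared among these copies, which also count among the higher NF-kappaB response genes, so they are not separate observations. The median of the Bcl2 family list was 0.17, 0.02 without Lung replicate 3 and -0.20 with median centring, and 1 member was higher without Lung replicate 2. Mcl1, the survival factor neutrophils depend on, did not pass (-0.44). Of 23 tested feedback inhibitors of cytokines and MAP kinases (26 listed) 3 were higher and 2 lower (13% and 8.7%, near the 12.2% and 6.43% of all tested genes, with a median of 0.49), and 6 were higher without Lung replicate 3. Dusp2, a phosphatase, was at 72.8, 166 and 87.1 in Lung against at most 3.29 in Blood (5.31 ± 0.66, adjusted p = 0.000333), and Socs3, which blocks signals of the Csf3 receptor, was lower at 120.3, 175 and 184 in Lung against 479, 425 and 509 in Blood (-1.57 ± 0.30, adjusted p = 0.00383). Of 20 tested cell cycle genes (33 listed) 2 were higher and 1 lower (10% and 5%, also near those shares, with a median of 0.29, from 0.04 without Lung replicate 1 to 0.59 without Lung replicate 3, and -0.08 and -0.07 under quantile normalization and median centring). The lower one was Mki67, a proliferation marker, at 37.8, 52.5 and 18.02 in Lung and 123, 144 and 129 in Blood (-1.96 ± 0.39, adjusted p = 0.00554).

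**Figure D4:**
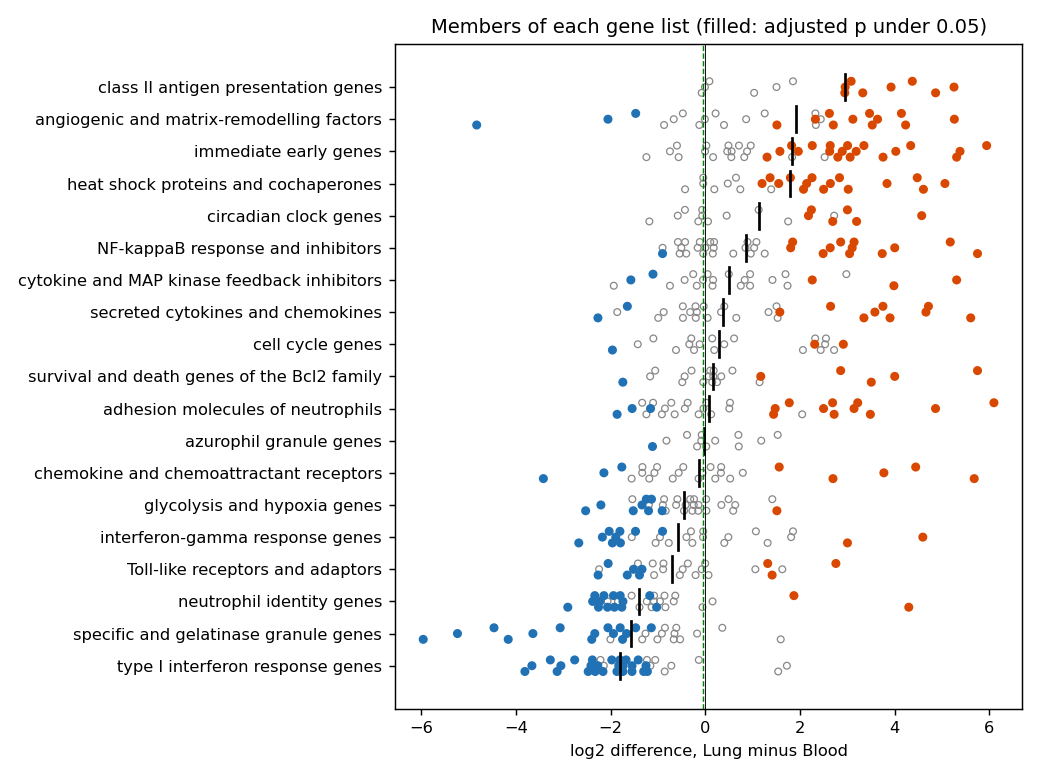
Log2 difference of Lung minus Blood for each tested member of 19 gene lists. Filled points passed at an adjusted p under 0.05 (orange higher, blue lower), black bars mark the median of a list and the dashed line the median of all tested genes at -0.04.

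Fewer list members passed when other libraries shared the fit. When all 18 libraries were fitted together and shared 1 estimate of the spread, 5 type I interferon response genes, 7 granule genes, 2 neutrophil identity genes, 4 interferon-gamma response genes and 1 glycolysis gene were lower. In that fit 9 NF-kappaB response genes, 14 immediate early genes, 6 cytokines, 9 heat shock proteins, 7 angiogenic factors, 4 class II genes and 2 clock genes were higher. With no mean trend in the variance prior of limma, 15 type I interferon response genes, 8 granule genes, 6 neutrophil identity genes and 1 glycolysis gene were lower. Without a filter on low values 6 angiogenic factors were higher and 3 glycolysis genes lower. Weighted by library, 23 neutrophil identity genes, 16 glycolysis genes and 8 chemoattractant receptors were lower. The weights were 0.351, 5.14 and 0.339 in Lung, so the Lung side of the weighted fit rested mainly on replicate 2. Ptgs2, Tnfaip3, Nfkbia, Nfkbiz, Nr4a1, Nr4a3, Fosb, Atf3, Cxcl2, Tnf, Ccrl2, Thbs1, G0s2, Cd14, Camp, Ngp, Ltf, Lcn2, Ifitm1 and Gbp2 passed in each of the 18 alternatives.

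The gene groups differed in which Lung library held the highest level. Among all 1557 genes higher in Lung, 995 were highest in Lung replicate 1, 428 in Lung replicate 2 and 134 in Lung replicate 3. Of the higher immediate early genes 15 of 19 were highest in Lung replicate 3, and of the higher NF-kappaB response genes 2 were highest in Lung replicate 1, 6 in replicate 2 and 4 in replicate 3. Of the higher endothelial markers 28 of 31 were highest in Lung replicate 1 and none in Lung replicate 3. Divided by Csf3r of the same library, Ptgs2 was 1.29, 1.49 and 1.17 in Lung and 0.0140, 0.00705 and 0.0396 in Blood. The same ratio of Cxcl2 was 0.448, 0.292 and 0.372 in Lung and 0.00720, 0.00359 and 0.00956 in Blood, and that of Thbs1 0.591, 0.416 and 0.468 in Lung and 0.00985, 0.0164 and 0.0127 in Blood. These ratios lay closer together among the Lung libraries than that of Cdh5, which was 0.719, 0.247 and 0.0472. Other genes of the same lists spread more widely than these 3: the ratio of Tnf was 0.0343, 0.0281 and 0.00621 in Lung, that of Il1a 0.0747, 0.0476 and 0.0105 and that of Vegfa 0.193, 0.0884 and 0.0455. What part other cells have in these ratios was not tested. Some lower genes kept a gap on this scale: Oasl2 was 0.208, 0.195 and 0.149 in Lung and 0.541, 0.741 and 0.273 in Blood, and Cxcr2 was 0.367, 0.477 and 0.526 in Lung and 0.973, 0.981 and 0.870 in Blood. Other lower genes did not, and the ratios of Ly6g and Tlr4 overlapped between Lung and Blood.

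**Figure D5:**
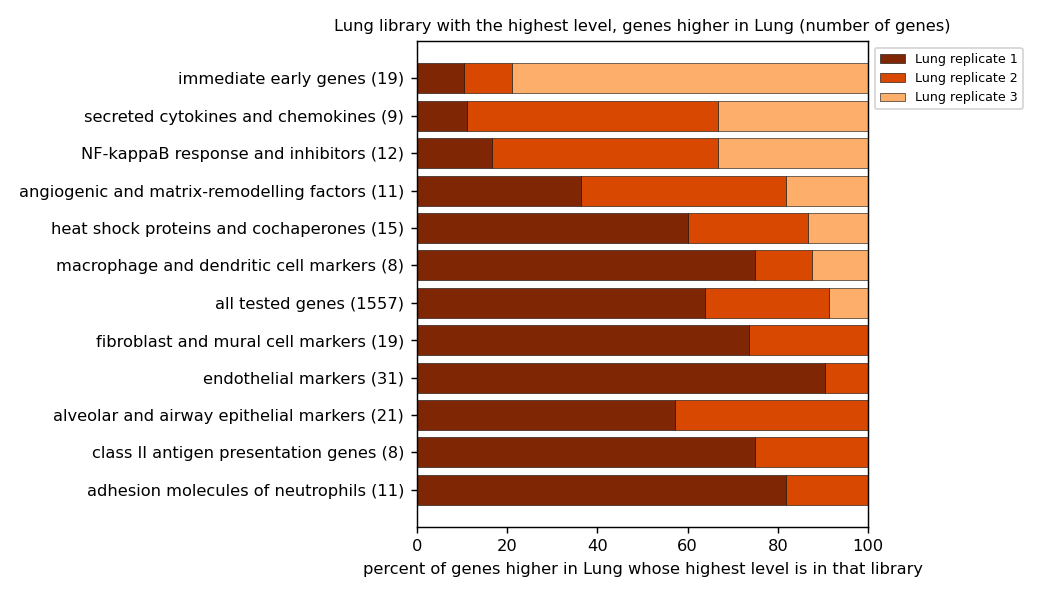
Percent of the genes higher in Lung that are highest in each Lung library, by gene list, with the number of genes in parentheses. Lung replicate 3 holds the highest level for 15 of 19 immediate early genes and for 0 of 31 endothelial markers.

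Centring each library on the neutrophil identity genes, a scaling added after the data were seen that gives these genes the same median level in every library, left 1647 of the 2377 calls. The median log2 difference of these genes was then -0.49, against -1.39 without it. On that scale Il1b was higher in Lung (2.43 against 1.53, adjusted p = 9.86e-06), as were Fos (1.73, adjusted p = 0.00409) and Cxcr4 (1.43, adjusted p = 0.00842). S100a9 was lower (-0.94, adjusted p = 0.00457), and Cxcr2 remained lower (-1.24, adjusted p = 0.00345). Ly6g did not pass (-1.32, adjusted p = 0.188), nor did Csf3r (-0.18, adjusted p = 0.556). S100a9, Cxcr2, Ly6g and Csf3r are themselves among the genes used for the centring. Their values on this scale are relative to the median of their own list and are no independent check of it.

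Levels in the other tissues place these differences without a test. Ptgs2 averaged 2617 ± 1282 in Lung and 3459 ± 3667 in Skin (mean ± SD, n = 3, as below) against 67.2 ± 16.2 in marrow, 188 ± 136 in Spleen and 299.5 ± 48.8 in Intestine. Tnfaip3 averaged 1959.7 ± 597 in Lung, 1131 ± 467 in Skin, 161 ± 64.8 in Intestine, 64.8 ± 14.01 in Spleen and 28.4 ± 9.38 in marrow. For both genes Skin was the tissue nearest to Lung, with a spread in Skin that spans Lung for Ptgs2. Nfkbiz averaged 2140.2 ± 686 in Lung, 1113 ± 721 in Skin, 203 ± 66.3 in Spleen, 154 ± 26.5 in Intestine and 132 ± 17.1 in marrow. Oasl2 averaged 1964 ± 797 in Blood and 351 ± 141 in Lung, with 584 ± 183 in Spleen, 517 ± 463 in Skin, 375 ± 122 in marrow and 77.2 ± 25.6 in Intestine, so that Blood was the highest of the 6 tissues. Ifitm1 had the same highest tissue, at 1252 ± 621 in Blood, 205 ± 53.9 in Spleen, 139 ± 47.5 in Lung, 126 ± 55.5 in marrow, 114 ± 86.2 in Skin and 33.3 ± 21.5 in Intestine.

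Outside the marker lists, genes were also named by the size of their difference alone. Among those well read in Blood (a mean of at least 50), Ptgs2 and Tnfaip3 had the largest differences. Sptbn1, a spectrin of the membrane skeleton, was at 2974, 2309.8 and 995 in Lung and 38.5, 62.7 and 105 in Blood (4.88 ± 0.45, adjusted p = 4.18e-05), and the scaffold Ahnak at 2542, 1908 and 998 in Lung and 220.2, 189 and 189 in Blood (3.08 ± 0.37). Both were highest in Lung replicate 1. Without that floor in Blood the 12 largest differences outside the marker lists included Npnt, the matrix protein nephronectin, at 357, 236 and 62.7 in Lung against at most 2.24 in Blood (6.78 ± 0.72, adjusted p = 0.000114), and Hpgd, which breaks down prostaglandins, at 686, 433 and 208 in Lung against at most 5.72 in Blood (6.72 ± 0.63). Among lower genes the acute-phase gene Orm2 was at 0.392, 4.52 and 1.18 in Lung against 58.7, 32.5 and 47.5 in Blood (-4.17 ± 0.71, adjusted p = 0.00231), and Cdh23, a cadherin of sensory hair cells, at 0.131, 5.12 and 1.29 in Lung against 93.7, 45.3 and 62.2 in Blood (-4.70 ± 0.72). On mm10, from the GENCODE annotation of that build, Ptgs2 (ENSMUSG00000032487) lies on chromosome 1, 150100031 to 150108227, Tnfaip3 (ENSMUSG00000019850) on chromosome 10, 19000910 to 19015657, Cxcl2 (ENSMUSG00000058427) on chromosome 5, 90903871 to 90905938 and Oasl2 (ENSMUSG00000029561) on chromosome 5, 114896936 to 114912234.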

How the data were processed

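RNA of Ly6G+ cells sorted from lung and blood was measured in 6 libraries, 3 per tissue, grouped by their labels. Reads were handled with CASAVA, RSEM 1.3.1 and limma against mm10, per the submitters' processing notes. The deposited table holds a linear signal per gene: its lowest steps in each column match what limma's voom computes before taking logs, an RSEM count with 0.5 added, per 1000000 of the effective library size. The design had assumed length-scaled values; the authors' values are not divided by gene length. Of 32328 rows, 429 carried no gene name in the annotation used. The steps gave back the estimated counts and with them the depth of each library.

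From the deposited values, log2(value + 1) was fitted for the 6 libraries with limma 3.58.1 (R 4.3.3, data.table package 1.17.8), with tissue as the factor, a mean trend, 4 residual degrees of freedom and Benjamini-Hochberg adjustment, over the 12755 genes that reached a value of 1 in 3 or more of them. Fold changes are on that scale and understate those of low genes. An exact permutation test of 3 against 3 libraries cannot go below p = 0.1. In simulated counts with 200 changed genes among 12709 tested, drawn with 1 dispersion (0.0868) for both tissues although Lung varied more than Blood, 22.4% of genes changed 2-fold, 97.0% of those changed 4-fold and 100% of those changed 8-fold were recovered and 11 unchanged genes called, which may be optimistic for these libraries. Tables and figures were made with Python 3.11.15, pandas 2.3.3, numpy 2.4.6 and matplotlib 3.10.9.

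The members and lists were chosen with earlier results of these data known. Genes were named by rule: among called, non-overlapping protein-coding genes outside the marker lists, the 12 with the largest difference higher in Lung (Lung mean at least 20), the 12 with a Blood mean of at least 50, and the 16 lower (Blood mean at least 20); up to 6 members per list with the smallest adjusted p; and 25 genes of interest. Further list members were named after their values were seen. The 18 alternatives changed the scaling, pseudocount, filter, fit or libraries.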

Additional observations from a re-analysis of the deposited data

How the results depend on the processing

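No called gene named in the text changed direction under the 18 alternatives other than Irf1. Against 2377 genes called, 1466 were called without a filter on low values, 1183 with all 18 libraries in the fit and 5559 with library weights, and between 829 and 3244 with 1 library left out. Against 1557 higher genes, the same settings gave 1008, 966 and 3117, and leaving out a library gave 508 to 1582. Against 820 lower genes, median centring gave 1477, no filter 458, all 18 libraries 217, library weights 2442, no mean trend 451 and leaving out a library 239 to 1662. The counts with library weights rest mainly on Lung replicate 2, whose weight was 5.14 against 0.351 and 0.339 for Lung replicates 1 and 3. Centring on the neutrophil identity genes, chosen after seeing the data, gave 91, and Irf1, lower otherwise, was at 0.0018 on that scale. The causes of these shifts were not tested.

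Replicate numbers follow letters in the labels that are not the same set in both tissues. The numbers were not used as pairs, because the labels do not say whether they mark shared animals or days. Deviations of samples with the same number had correlations of -0.06, 0.01 and -0.08. These cannot show whether samples were paired, since the same number need not stand for the same letter. A fit with the number as a replicate block called 2139 genes, 1434 higher and 705 lower.

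Lung replicate 1 had the fewest estimated counts, so low genes are read least well there. Simulated 2-fold changes were mostly missed even with no more spread in Lung than in Blood, and a gene that did not pass is not shown to be equal in both tissues.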

Other observations

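Mitochondrially encoded genes were higher in Lung in 11 of 12 tested members, with a median log2 difference of 4.05. mt-Nd5, a subunit of respiratory complex I, was at 1979, 2813 and 2469 in Lung and 102, 102 and 173 in Blood (4.29 ± 0.33, adjusted p = 2.07e-05 by limma). mt-Cytb, of complex III, was at 2466, 3286 and 2506 in Lung and 154, 179 and 247 in Blood (3.84 ± 0.33). The labels give no sex. Ddx3y, a Y-linked helicase gene, was at 117, 152 and 176 in Lung and 11.4, 1.69 and 1.61 in Blood (5.05 ± 0.60, adjusted p = 0.000244), and Eif2s3y, also Y-linked, at 80.9, 46.9 and 83.0 in Lung and 0.179, 0.708 and 0.156 in Blood (5.70 ± 0.67, adjusted p = 0.000234). Kdm5d and Uty, Y-linked as well, were read in every library of both tissues, and neither difference passed. Kdm5d had levels of 43.9, 35.8 and 37.5 in Lung, against 28.9, 38.4 and 23.3 for Blood (0.38, adjusted p = 0.526). For Uty the Lung levels were 56.1, 38.0 and 59.7, and the Blood levels 37.1, 33.2 and 16.4 (0.86, adjusted p = 0.179). What part the sex of the animals has in the differences was not tested.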
